A study of Mus musculus with 20 samples.

Results

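In this series 6 genes of the red blood cell, of 51789 genes in the deposited table, were followed through the aged mouse intervertebral disc: the adult alpha-globin genes Hba-a1 and Hba-a2, the adult beta-globin genes Hbb-bs and Hbb-bt, the haem synthesis gene Alas2 and the membrane transporter gene Slc4a1. They were taken by symbol, whatever their values. The study measured RNA in 20 libraries of 2 disc tissues, 5 libraries in each of 4 groups: the nucleus pulposus, or NP, a gel-like core, and the annulus fibrosus, or AF, a ring of fibrous layers that encloses it, each from mice given vehicle and from mice given MDL-800. All mice were of the BL6 strain and 24 months old, and all had received weekly intraperitoneal injections from 18 months of age for 6 months, either of DMSO alone or of MDL-800 in DMSO. This compound activates SIRT6, a deacylase that acts on chromatin, which is the role the series title gives it, and the design asks what its long use changes in each compartment of the old disc. Both agents were given to the whole animal, and no gene was altered in any group. The labels speak of primary cells, while their extraction protocol describes tissue dissected under a microscope. They do not say how many mice gave the 20 libraries, or whether material was pooled, so a p-value here measures the spread between libraries, which may in part be technical.

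A red blood cell carries haemoglobin, made of paired alpha-globin and beta-globin chains, each holding a haem group. Its precursors mature in the bone marrow, where GATA1 and KLF1 drive the globin genes, ALAS2 starts haem synthesis and the band 3 protein, the product of Slc4a1, is built into the membrane. Mature mammalian red cells have no nucleus, but young ones still hold globin RNA. The inner disc has no blood vessels of its own, and the vessels nearest to it lie in the outer annulus and in the marrow of the adjoining vertebrae.

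The 4 globin genes form near-identical pairs, so the split of reads within a pair depends on how the counting handled shared reads, which is not given in the sources used here. In GENCODE M21, on the mouse build GRCm38, Hba-a1 (ENSMUSG00000069919) lies on chromosome 11 at 32283511 to 32284465 and Hba-a2 (ENSMUSG00000069917) at 32296489 to 32297298, both on the plus strand with 3 exon blocks. Their coding sequences of 426 bases differ at 1 base, C381T, counted from 1 at the A of the start codon, with the Hba-a1 base first. Only 32.5% of the 50-base windows of the Hba-a1 exons and 13.1% of those of Hba-a2 occur in no other annotated transcript. Hbb-bs (ENSMUSG00000052305, chromosome 7, 103826534 to 103828096) and Hbb-bt (ENSMUSG00000073940, chromosome 7, 103812524 to 103813996), both on the minus strand, are the adult beta-globin genes of the C57BL/6 haplotype. Their coding sequences of 441 bases also differ at 1 base, C417T, with the Hbb-bs base first, and 34.2% and 41.7% of their windows are unique. Alas2 (ENSMUSG00000025270, chromosome X, 150547375 to 150570638, plus strand) lies inside the span of Apex2 on the opposite strand, and 86.2% of its windows are unique. The kit keeps strand, but whether the counting used it is not given in the sources used here. Slc4a1 (ENSMUSG00000006574, chromosome 11, 102348824 to 102366203, minus strand) is unique in 100% of its windows, so its values do not depend on shared reads.

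The upstream windows of 4 of the 6 genes are shown side by side as a description, and their part in the levels was not tested. Each runs from 250 bases before the start site to the base before it, 5′ to 3′ on the gene's own strand, from RefSeq on GRCm38.p6. Capitals mark exact matches to motifs, each searched on both strands, so near matches such as tgataa and catataag in Hba-a2 stay in lower case. The motifs are AGATAA, a site that erythroid zinc finger factors such as GATA1 bind, and CACACCC, the kind of site that KLF1 binds. The others are the general promoter elements CCAAT, found upstream of many genes, and TATAAA, usually nearer to the start site.
Hba-a2, chr11:32296242-32296491, plus strand: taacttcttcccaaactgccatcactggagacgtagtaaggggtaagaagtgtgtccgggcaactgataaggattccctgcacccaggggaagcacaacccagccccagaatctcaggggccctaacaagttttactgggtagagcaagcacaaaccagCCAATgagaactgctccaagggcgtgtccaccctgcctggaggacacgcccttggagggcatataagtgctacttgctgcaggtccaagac
Hbb-bs, chr7:103827929-103828178, minus strand: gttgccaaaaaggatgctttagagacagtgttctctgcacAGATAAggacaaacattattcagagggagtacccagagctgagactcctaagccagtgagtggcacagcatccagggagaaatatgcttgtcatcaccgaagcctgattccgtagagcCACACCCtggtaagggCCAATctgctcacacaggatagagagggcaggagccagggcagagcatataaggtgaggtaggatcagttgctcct
Hbb-bt, chr7:103813924-103814173, minus strand: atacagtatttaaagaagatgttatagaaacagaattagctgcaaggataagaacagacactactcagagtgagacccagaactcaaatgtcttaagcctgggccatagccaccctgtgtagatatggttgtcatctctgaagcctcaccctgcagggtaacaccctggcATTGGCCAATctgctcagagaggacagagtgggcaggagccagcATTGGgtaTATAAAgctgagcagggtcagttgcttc
Alas2, chrX:150547167-150547416, plus strand: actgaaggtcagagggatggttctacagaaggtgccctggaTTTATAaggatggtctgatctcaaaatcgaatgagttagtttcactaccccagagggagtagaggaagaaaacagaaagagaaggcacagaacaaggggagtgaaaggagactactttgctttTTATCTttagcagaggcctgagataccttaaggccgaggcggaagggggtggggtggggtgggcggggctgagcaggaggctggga
The Hba-a1 window, shifted by 3 bases and compared past the start site to the end of the table's entry, matched that of Hba-a2 at 297 of 297 bases, whereas the Hbb-bs and Hbb-bt windows, aligned with gaps, matched at 178 of 257. CCAAT was found in all 4 globin windows, at -91 to -87 in Hba-a2, -76 to -72 in Hbb-bs and -75 to -71 in Hbb-bt, where its reverse complement lies directly beside it at -80 to -76. AGATAA was found in Hbb-bs at -210 to -205 and, reversed, in Alas2 at -86 to -81, and CACACCC in Hbb-bs at -92 to -86. TATAAA was found in Hbb-bt at -28 to -23 and, reversed, in Alas2 at -209 to -204, which is not near the start site. Of 32851 RefSeq promoter windows, AGATAA was in 9.99%, CACACCC in 6.93%, CCAAT in 33.8% and TATAAA in 12.4%. This set leaves out a numbered chromosome and all sequences other than the numbered, X and Y chromosomes. The matches are descriptions of these letters only, and Slc4a1 is named without a window.

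Depth, estimated from the steps between low values, ranged from 12.75 to 21.75 M (mega) fragments per library and was close between groups, at 19.1 ± 2.43 M (SD, n = 5) in NP vehicle, 18.4 ± 3.31 in NP MDL-800, 19.3 ± 1.04 in AF vehicle and 19.7 ± 1.43 in AF MDL-800. The tissue labels held against their markers: all 6 NP markers that passed the filter were higher in NP in both treatments by limma, with summed scaled FPKM of 25600 to 32800 in NP libraries and 2490 to 15100 in AF libraries. Of 6 AF markers, 5 were lower in NP with vehicle and 4 with MDL-800, with sums of 758 to 1550 in NP and 2660 to 7490 in AF. Fmod leaned the other way without being called. Its means were 1000 in NP and 703 in AF with vehicle (limma adjusted p = 0.0946). With MDL-800 they were 924 and 653 (limma adjusted p = 0.0847). Fmod alone, at 742 to 1510 in NP vehicle libraries, made up most of the NP sums. Levels are given as scaled FPKM (fragments corrected for transcript length and library size, then divided by a factor for each library), differences are in log2(scaled FPKM + 1), and a gene is called when limma's adjusted p over 16383 genes is under 0.05. All 6 genes passed the filter on low values.

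All 6 genes were lower in NP than in AF of vehicle-treated mice, by 10.3 to 14.9 times in the means, and no NP library reached an AF library for any of them. Of the 16383 genes, 33.9% were called lower in NP in this comparison and 25.9% had every NP library below every AF library, so these calls by themselves do not set the 6 genes apart. Their log2 differences, -3.87 to -3.04, lay among the lowest 0.952% to 3.16% of all genes, beside a median of -0.08. In bulk tissue, fewer red cells and less RNA per cell cannot be told apart.

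**Figure D1:**
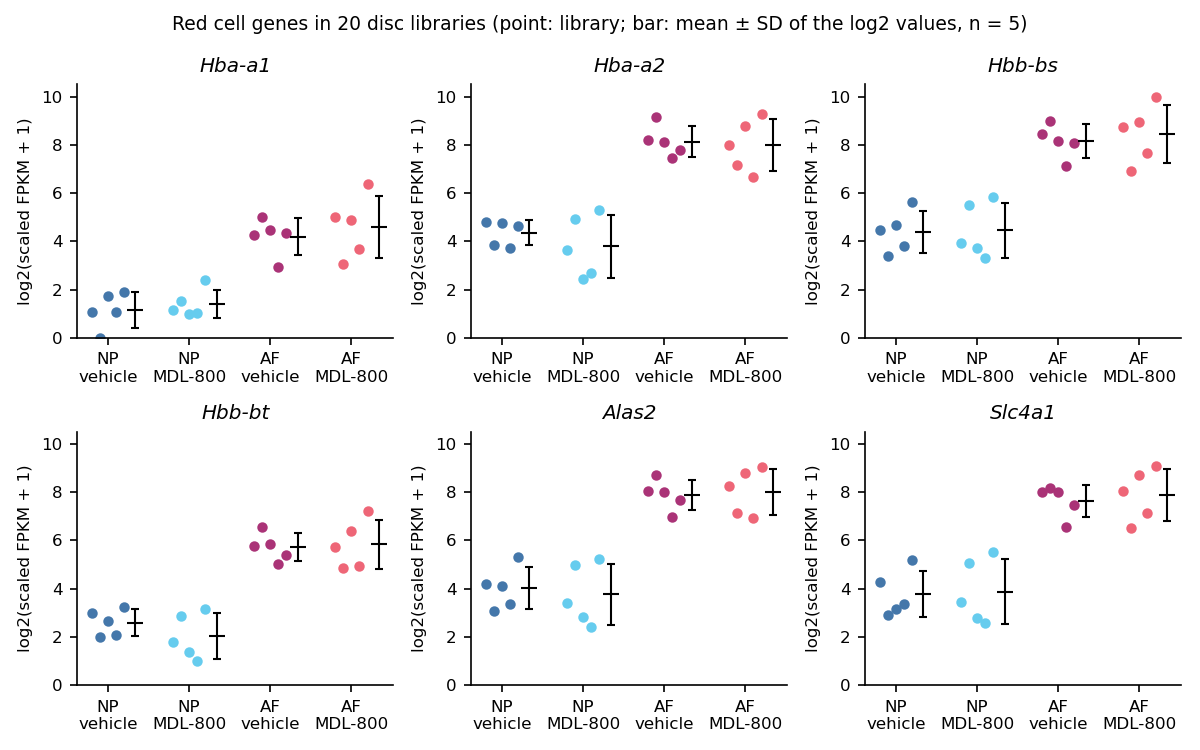
Each point is a library, the vertical axis is log2(scaled FPKM + 1), and the bar gives the mean ± SD of the 5 log2 values of a group. In all 6 panels the 10 NP libraries lie below the 10 AF libraries, and the vehicle and MDL-800 groups of a tissue overlap.

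Hba-a2, the more abundant alpha-globin gene, had scaled FPKM of 27.0, 13.5, 26.4, 12.2 and 23.7 across NP vehicle libraries 1, 2, 3, 5 and 6, and of 289.8, 569, 277, 173 and 217 in AF vehicle libraries 8, 9, 10, 12 and 13. The lowest AF library, 12, thus held several times the highest NP value. The log2 difference was -3.78 (SE 0.33, limma adjusted p = 1.06e-05). With MDL-800 the values were 11.4, 29.8, 4.37, 5.38 and 38.4 in NP libraries 15, 18, 19, 20 and 22, and 254, 144.3, 442, 100.6 and 626 in AF libraries 25, 27, 28, 29 and 30. Again no library overlapped, and the difference was -4.19 (SE 0.66, limma adjusted p = 0.000253).

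Hba-a1, which encodes the same alpha chain, was the lowest of the 6. It stood at 1.09, 0, 2.32, 1.11 and 2.72 in NP vehicle libraries 1, 2, 3, 5 and 6, and at 18.35, 30.75, 21.2, 6.59 and 19.15 in AF vehicle libraries 8, 9, 10, 12 and 13. The gene is listed at 0 in NP library 2, and the NP values rest on about 0 to 27 fragments. The log2 difference was -3.04 (SE 0.42, limma adjusted p = 0.000145), which understates the change of a gene this low. With MDL-800 its range was 0.969 to 4.24 in NP (median 1.19) and 7.23 to 80.9 in AF (median 28.8), a difference of -3.19 (SE 0.55, limma adjusted p = 0.000481).

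Hbb-bs, the major adult beta-globin gene of this haplotype, stood at 20.9, 9.41, 24.8, 12.9 and 48.3 in NP vehicle libraries 1, 2, 3, 5 and 6. The AF vehicle libraries 8, 9, 10, 12 and 13 held 348, 512, 282, 137 and 272. NP library 6 was the highest NP library and AF library 12 the lowest AF library, and the log2 difference was -3.77 (SE 0.43, limma adjusted p = 4.70e-05). With MDL-800 the NP libraries 15, 18, 19, 20 and 22 held 14.45, 44.9, 12.2, 8.83 and 56.3. The AF libraries 25, 27, 28, 29 and 30 held 420.1, 119.5, 499, 204 and 1022, the last being the highest value of any member in any library. The groups did not overlap, with a difference of -3.99 (SE 0.64, limma adjusted p = 0.000296).

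Hbb-bt, the minor adult beta-globin gene, stood at 6.83, 2.95, 5.21, 3.23 and 8.49 in NP vehicle libraries 1, 2, 3, 5 and 6 and at 53.8, 93.0, 55.75, 31.85 and 40.7 in AF vehicle libraries 8, 9, 10, 12 and 13. Its log2 difference was -3.13 (SE 0.31, limma adjusted p = 2.19e-05). With MDL-800 it ranged from 1.00 to 7.93 in NP (median 2.42) and from 28.2 to 149.5 in AF (median 52.5), without overlap, and the difference was -3.79 (SE 0.54, limma adjusted p = 0.000122).

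Alas2, the erythroid enzyme of the first and rate-limiting step of haem synthesis, stood at 17.35, 7.45, 16.4, 9.27 and 38.8 in NP vehicle libraries 1, 2, 3, 5 and 6, and at 265, 417, 254, 123 and 203 in AF vehicle libraries 8, 9, 10, 12 and 13. NP library 6 was again the highest of NP and AF library 12 the lowest of AF. The log2 difference was -3.86 (SE 0.42, limma adjusted p = 3.63e-05). With MDL-800 it ranged from 4.34 to 36.3 in NP (median 9.52) and from 119.4 to 519.6 in AF (median 299.8), a difference of -4.25 (SE 0.62, limma adjusted p = 0.000149).

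Slc4a1, the chloride and bicarbonate exchanger of the red cell membrane, was measured without shared sequence. It stood at 18.3, 6.46, 7.85, 9.37 and 35.1 in NP vehicle libraries 1, 2, 3, 5 and 6, and at 255.5, 289.9, 254, 93.6 and 175 in AF vehicle libraries 8, 9, 10, 12 and 13. The log2 difference was -3.87 (SE 0.45, limma adjusted p = 5.04e-05). With MDL-800 it ranged from 4.95 to 44.7 in NP (median 9.71) and from 88.9 to 534.5 in AF (median 266), a difference of -4.02 (SE 0.67, limma adjusted p = 0.000377).

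With MDL-800, too, every one of the 6 genes was called lower in NP, by 14.8 to 17.8 times in the means, where 37.2% of all genes were called lower and 30.5% had no overlap in that direction. The exact two-sided permutation test over the libraries gave p = 0.0079 for each of the 6 genes in both treatments (n = 5 per group), the smallest value that 5 libraries against 5 allow. The scaling changed how all genes divided: under the upper-quartile factor, the vehicle comparison had 4976 genes called higher and 4655 lower in NP, and under quantile normalization 6474 and 3925, beside 3577 and 5550 here. Quantile normalization moved the median of all genes from -0.08 to 0.20. The 6 genes stayed called lower under each of these scalings.

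In AF vehicle the order of levels was Hbb-bs (310.2 ± 136, SD, n = 5), Hba-a2 (305 ± 155), Alas2 (252.3 ± 108), Slc4a1 (214 ± 79.2), Hbb-bt (55.0 ± 23.4) and Hba-a1 (19.2 ± 8.62). The ranges of the first 4 over the libraries overlapped, and differences between genes were not tested. Within each AF vehicle library Hba-a2 stood above Alas2, at 1.07 to 1.40 times its level. Hbb-bs did so too, at 1.11 to 1.34 times. Hbb-bt reached 93.0 at most, just under the lowest Slc4a1 value of 93.6, and Hba-a1 reached 30.75, under the lowest Hbb-bt value of 31.85. Hba-a2, Hbb-bs, Alas2 and Slc4a1 had median ranks of 232, 209, 256 and 269 among 21780 protein-coding genes in AF vehicle and of 3473, 3822, 4698 and 6761 in NP vehicle. The 4 globin genes together made up 0.0591% to 0.175% of the summed FPKM of AF vehicle libraries and 0.0526% to 0.277% of AF MDL-800 libraries, against 0.00435% to 0.0140% and 0.00259% to 0.0165% in NP. Whether globin RNA was removed along with ribosomal RNA during library preparation is not given in the sources used here, so the globin levels are those of these libraries, not of the tissue.

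No member was called between MDL-800 and vehicle in either tissue, and the MDL-800 and vehicle libraries overlapped for each. How many of all genes separate these groups was not counted. In NP, limma called 41 of 16383 genes (0.25%, and 2 to 189 genes with any 1 of the 10 libraries left out) and 0 of the 6, with none of the 6 at an unadjusted p under 0.05, where 2311 genes were. The estimates were -0.56 for Hba-a2 (95% interval -1.77 to 0.65, adjusted p = 0.704), -0.55 for Hbb-bt (-1.497 to 0.40, adjusted p = 0.617) and -0.25 for Alas2 (-1.58 to 1.08, adjusted p = 0.897). Those for Hba-a1, Hbb-bs and Slc4a1 were 0.25 (-0.58 to 1.08), 0.08 (-1.16 to 1.31) and 0.10 (-1.31 to 1.52), with adjusted p from 0.823 to 0.971. Each interval reaches past 1 log2 unit in at least 1 direction, so a change of that size in that direction is not excluded by these data.

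In AF, limma called 0 genes (0.0%) and 0 of the 6 between MDL-800 and vehicle, with 270 genes and none of the 6 at an unadjusted p under 0.05. The estimates ran from -0.15 for Hba-a2 (95% interval -1.26 to 0.96) to 0.40 for Hba-a1 (-0.90 to 1.70), with Hbb-bs at 0.30 (-0.91 to 1.502), Slc4a1 at 0.25 (-0.86 to 1.36), Alas2 at 0.14 (-0.87 to 1.15) and Hbb-bt at 0.11 (-0.89 to 1.12), all with an adjusted p of 1. The exact permutation test over the libraries gave p from 0.5873 to 0.8413 in AF and from 0.2698 to 0.9048 in NP (n = 5 per group). The difference of the MDL-800 effect between the tissues was tested as an interaction, which called 0 genes (0.0%), with 611 genes and none of the 6 at an unadjusted p under 0.05. Its estimates were -0.66 (Hbb-bt) to -0.15 (Hba-a1 and Slc4a1), with a limma adjusted p of 0.9997 for each. Each treatment comparison shares its libraries with the tissue comparisons above.

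**Figure D2:**
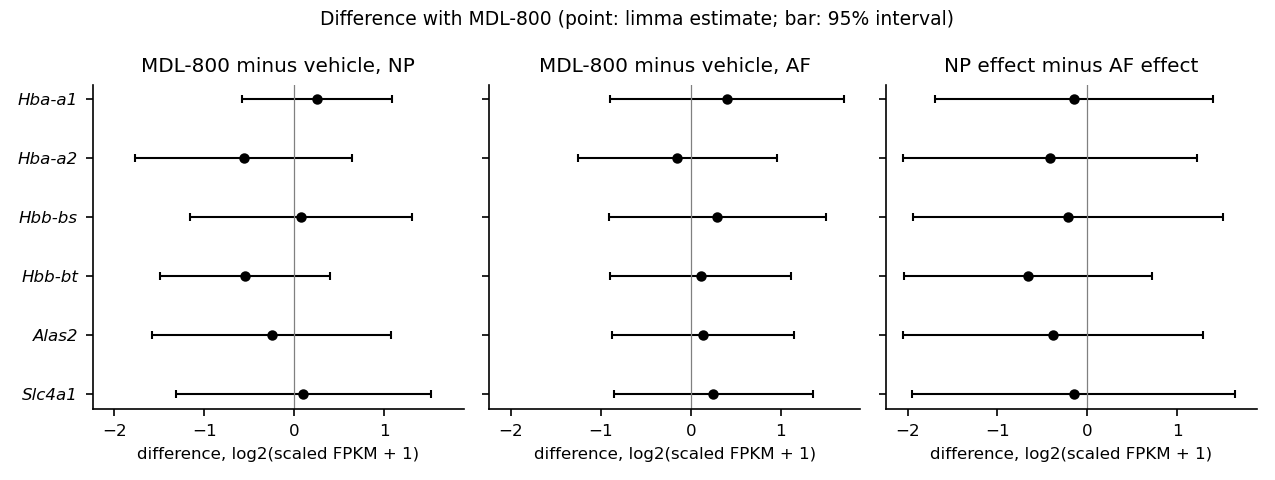
Points are limma estimates in log2(scaled FPKM + 1) for MDL-800 minus vehicle in NP (left) and AF (middle) and for the NP effect minus the AF effect (right), and bars are 95% intervals. Every interval spans 0, the narrowest in NP being that of Hba-a1 from -0.58 to 1.08.

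Within a group the libraries differed several-fold, and the 6 genes did so together. In NP MDL-800 all 6 were above their group means in libraries 18 and 22 and below them in 15, 19 and 20. Library 22 stood 0.98 to 1.64 log2 units above and library 20 stood at -1.35 to -0.38. In AF MDL-800 library 30 stood at 1.01 to 1.76 and library 27 at -1.56 to -0.80, and in AF vehicle library 9 at 0.54 to 1.02 and library 12 at -1.27 to -0.68. Signs were mixed in a few libraries near their group means, and in NP vehicle library 3 Slc4a1 stood at -0.63 while the other 5 genes stood at 0.05 to 0.58. Over the 20 libraries, with group means removed, each member's Pearson r with the mean of the 6, of which it is a part, was 0.89 (Hba-a1) to 0.99 (Hbb-bs).

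**Figure D3:**
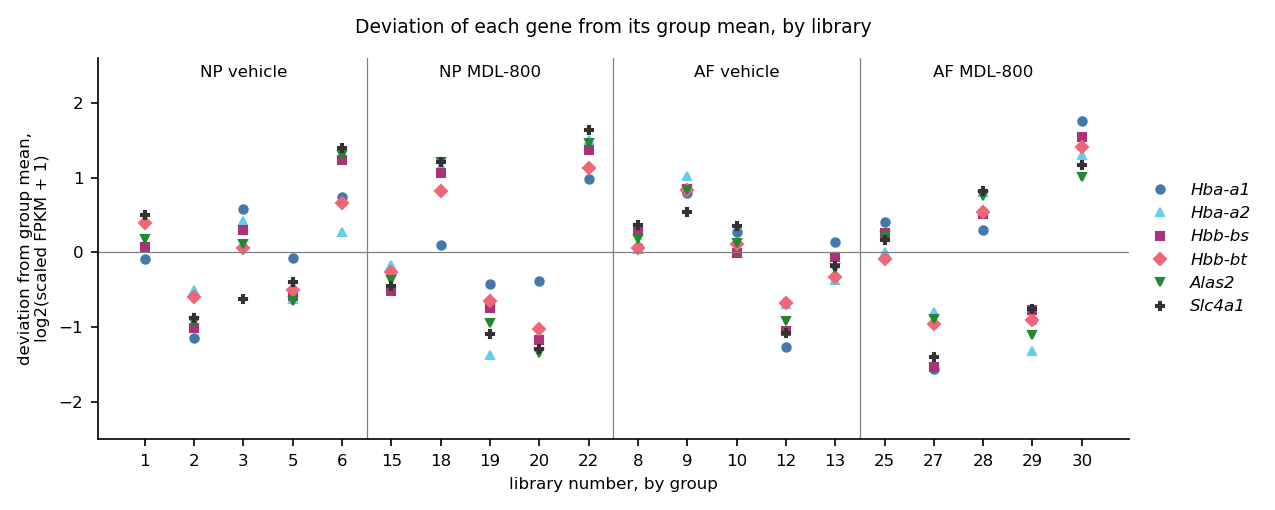
Each point is the deviation of a gene from its own group mean in log2(scaled FPKM + 1), by library, with the groups separated by vertical lines. The 6 symbols of a library lie mostly on the same side of 0, as in AF MDL-800, where library 30 lies at 1.01 to 1.76 and library 27 at -1.56 to -0.80.

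Among the genes whose pattern over the 20 libraries, with group means removed, was most like the mean of the 6 were Trim10 (r = 0.97), Slc25a37 (0.96), Ube2l6 (0.96), Fam46c (0.96) and Tspo2 (0.96), against a median of 0.01 over all genes. These points share library, depth and scaling. Over the 10 AF libraries they included Apol8 and Car2 (0.99 each), and over the 10 NP libraries Ube2l6 and Gm14198 (0.98 each). Slc25a37 encodes mitoferrin, the iron importer of erythroid mitochondria, and stood at 7.39 ± 4.09 in NP vehicle and 82.3 ± 25.7 in AF vehicle (SD, n = 5). Trim10, an erythroid ubiquitin ligase, stood at 1.92 ± 1.43 and 28.8 ± 8.69.

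The other genes of the red cell followed the same tissue order with few exceptions. Of 75 symbols in 7 lists, 70 were in the table and 64 passed the filter. With vehicle, limma called 56 of these 64 lower and 3 higher in NP (median log2 difference -2.32). With MDL-800, limma called 56 lower and 5 higher (-2.54). Of all 16383 genes, 33.9% were called lower and 3577 genes higher with vehicle, and 37.2% and 4188 with MDL-800. The same background stands beside the counts of each list below. The 5 higher with MDL-800 became 1 without the filter on low values, 2 without NP library 15, 19 or 22, and 3 without NP library 18 or 20 or AF library 29. They also became 1 with FPKM as deposited and 3 with all 4 groups in the fit. The median of all genes was -0.08 in both. No list gene was called between MDL-800 and vehicle in either tissue. The 64 estimates for MDL-800 had a median of 0.20 in AF and of -0.05 in NP, beside 0.01 and -0.03 for all genes. Over the 10 AF libraries, group means removed, the 7 list means followed the mean of the 6 genes at r = 0.89 to 0.98. The estimates are thus not separate from one another. AF MDL-800 library 30 held the highest AF value of each of the 6 genes.

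The haem pathway was lower in NP for all 10 listed genes in both treatments (medians -1.69 and -1.96). Fech, which inserts the iron, stood at 29.8 ± 4.66 in NP vehicle and 109 ± 24.9 in AF vehicle, a log2 difference of -1.82 (SE 0.16), and Urod differed by -1.42 (SE 0.16). Alas1, the form of the first enzyme used in all tissues, also was lower, by -1.73 (SE 0.30), less than the -3.86 of Alas2. It was not chosen by the naming rule but after its value was seen.

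All 18 membrane and cytoskeleton genes were lower in NP in both treatments (medians -2.86 and -3.06). Aqp1, a water channel of red cells that vessel walls also use, stood at 7.84 ± 5.36 in NP vehicle and 175 ± 26.4 in AF vehicle, the largest difference on the list at -4.47 (SE 0.30). Epb41, which encodes a protein of the membrane skeleton, differed by -2.42 (SE 0.21). All 8 enzyme and chaperone genes in the table were lower too (medians -2.41 and -2.62), among them Car1 (-2.62), Car2 (-2.60), Hemgn (-3.68) and Prdx2 (-0.99). Ahsp, the alpha-globin chaperone, was not analysed here.

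Of 11 erythroid transcription factor genes, 9 were lower in NP with vehicle and 8 with MDL-800, when 2 others, Ldb1 and Zbtb7a (named after its value was seen), were called higher. Gata1, the master regulator of the red cell line, stood at 1.94 ± 2.08 in NP vehicle and 23.3 ± 9.34 in AF vehicle, a difference of -3.15 (SE 0.44), and Klf1 at 1.34 ± 1.07 and 11.9 ± 3.96, a difference of -2.49 (SE 0.31). Lmo2 and Nfe2 differed by -3.67 and -3.53. Ldb1, a cofactor that many cell types express, stood at 35.7 ± 9.24 and 36.7 ± 7.78, with a difference of -0.05 (limma adjusted p = 0.869) that took the other sign under 3 scalings. It was called higher in NP with MDL-800, at 0.42 (limma adjusted p = 0.0258), a call lost in 7 alternative fits, and Zbtb7a (adjusted p = 0.0403) is likewise among the 5 calls whose number depended on the fit.

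Of 6 iron and erythropoietin genes that passed the filter, 2 were lower and 1 higher in NP with vehicle, and 3 lower and 1 higher with MDL-800. Slc25a37 was lower in both. Tfrc, the transferrin receptor of all dividing cells, stood at 62.3 ± 9.43 in NP vehicle and 77.2 ± 13.0 in AF vehicle (limma adjusted p = 0.0922, and 0.0316 with FPKM as deposited), and Steap3 at 17.5 ± 4.45 and 22.2 ± 4.25 (adjusted p = 0.14). Of 10 reticulocyte maturation genes, 8 were lower and 2 higher in both treatments, the 2 higher with MDL-800 being among the 5 calls whose number depended on the fit. Bnip3l, which drives the loss of mitochondria from young red cells and is also induced by low oxygen, was higher in NP, at 573 ± 37.8 against 339 ± 98.7, a difference of 0.79 (SE 0.17, limma adjusted p = 0.0026). The other, Fbxo7, named after its value was seen, differed by 0.78 (SE 0.15). Fam46c and Mkrn1 were lower, by -3.32 and -1.47.

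**Figure D4:**
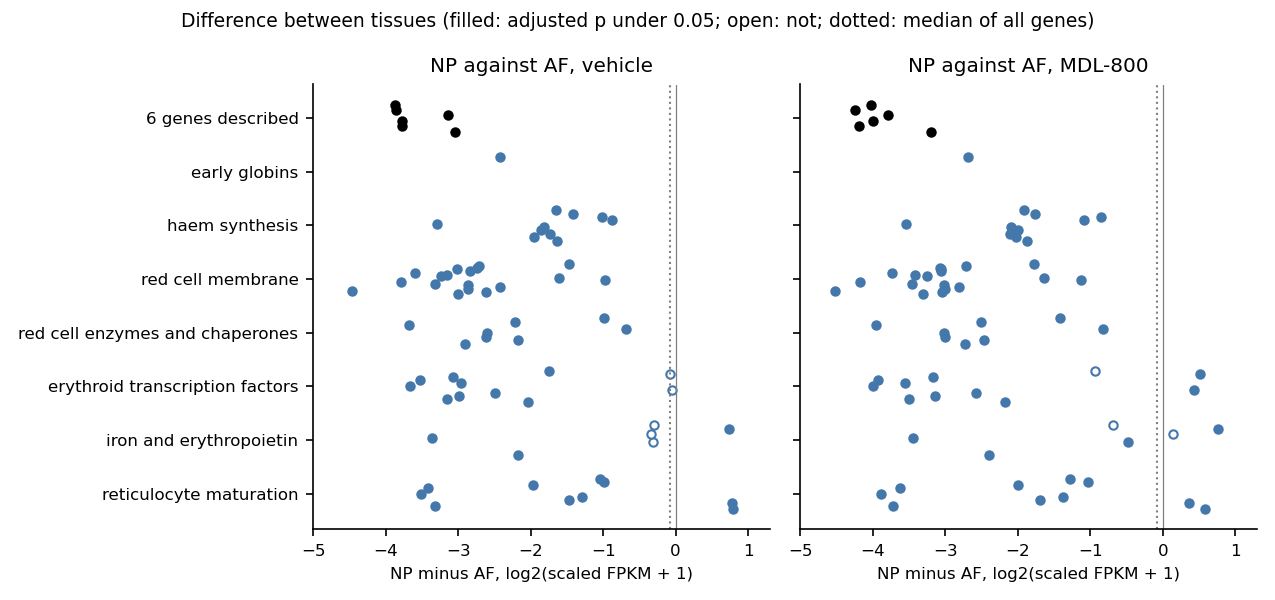
Each point is a gene and the horizontal axis is NP minus AF in log2(scaled FPKM + 1), for vehicle (left) and MDL-800 (right), with filled points for an adjusted p under 0.05 and open points otherwise. The 6 genes described (black) lie between -4.25 and -3.04, and the dotted line marks the median of all genes at -0.08.

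Globin genes of the embryo were at or near 0. Hba-x, Hbb-bh1 and Hbb-bh2 were listed at 0 in 19 of 20 libraries and Hbb-y in 18, none above 0.15 FPKM. Of the theta-globin genes on the same list, Hbq1a failed the filter, at 0 in 9 of 20 libraries and at most 1.09 FPKM. Hbq1b was the only gene of the list to pass, at 0.412 ± 0.386 in NP vehicle and 6.82 ± 2.75 in AF vehicle (log2 difference -2.42, SE 0.28, limma adjusted p = 5.39e-05).

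Markers of other cells moved with the red cell genes between the tissues. All 8 neutrophil markers were lower in NP in both treatments, with summed scaled FPKM of 190 to 3090 in NP libraries and 6080 to 32800 in AF libraries. So were all 7 platelet and megakaryocyte markers (9.59 to 134 and 371 to 858), all 6 B cell markers (1.31 to 12.4 and 41.4 to 99.4), all 7 bone markers (23.4 to 276 and 718 to 3260) and all 6 endothelial markers (1.69 to 8.27 and 48.6 to 110). Of all 16383 genes, 33.9% were called lower in NP with vehicle and 37.2% with MDL-800. No marker of these lists was at 0 in every library. Skeletal muscle sums were 9.58 to 1010 in NP and 747 to 8070 in AF. With group means removed, over the 20 libraries, the mean of the 6 genes correlated at r = 0.79 with the neutrophil list, 0.70 with B cells, 0.57 with platelets, 0.30 with endothelium, 0.23 with bone, -0.05 with muscle and -0.13 with the AF list, as a description of points that share library and depth. Within the tissues some of these differed in sign. Over the 10 NP libraries r was 0.88 with endothelium, 0.41 with muscle and 0.35 with the AF list. Over the 10 AF libraries it was -0.10, -0.72 and -0.80. With the NP list r was 0.35 over the 20 libraries, -0.10 over the 10 NP libraries and 0.52 over the 10 AF libraries. The neutrophil, B cell, platelet and bone lists gave 0.87, 0.84, 0.71 and 0.15 in NP and 0.72, 0.58, 0.41 and 0.36 in AF. The part of blood, marrow or neighbouring tissue in the dissected samples in these differences was not tested.

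Ratios between members within a library do not depend on the scaling factor of that library. Those to the globin sum rest on globin levels, and whether globin RNA was removed is not given in the sources used here. They also rest on fewer fragments in NP. With MDL-800, Hba-a2 had about 20 to 271 fragments in NP and 716 to 5254 in AF. The sum of the alpha-globin genes to that of the beta-globin genes was 0.870 ± 0.246 in NP vehicle, 0.613 ± 0.135 in NP MDL-800, 0.892 ± 0.135 in AF vehicle and 0.705 ± 0.215 in AF MDL-800 (SD, n = 5), and the groups overlapped in all 4 comparisons. Alas2 to the globin sum was 0.332 ± 0.0768, 0.323 ± 0.0364, 0.368 ± 0.0204 and 0.379 ± 0.0710, and Slc4a1 to the globin sum was 0.290 ± 0.107, 0.351 ± 0.0524, 0.318 ± 0.0648 and 0.347 ± 0.0551, in the same order, again with overlap throughout. These ratios overlapped between NP and AF where the levels themselves did not. No ratio was tested.

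Of 10 ratios set side by side in 4 comparisons, Hbb-bs to Hbb-bt was the only one whose groups did not overlap, and that only between the NP groups. How often other genes or gene pairs separate these NP groups was not counted, so the ratio is given as a description only. It was 3.07, 3.19, 4.75, 4.00 and 5.68 in NP vehicle libraries 1, 2, 3, 5 and 6. In NP MDL-800 libraries 15, 18, 19, 20 and 22 it was 5.98, 7.19, 7.65, 8.78 and 7.10. The highest vehicle library, 6, lay just under the lowest MDL-800 library, 15. In AF it ranged from 4.31 to 6.68 with vehicle and from 4.24 to 8.01 with MDL-800. The NP values rest on few fragments, 23 to 83 of Hbb-bt with vehicle and 10 to 79 with MDL-800, so the counting error of a single ratio is 12.1% to 24.4% and 12.1% to 33.9%, which covers counting error only. The slope of log2 level on GC content of the transcripts, per 10 percentage points, ran from -0.285 to -0.00672 in NP vehicle and from 0.0228 to 0.0885 in NP MDL-800, also without overlap. The longest transcripts of the pair have 51.3% and 50.8% GC. The part of GC content or of read sharing in the ratio was not tested. Hba-a2 to Hba-a1, the ratio in the other pair, was 13.9 ± 7.24 (n = 4, library 2 listing Hba-a1 at 0), 8.89 ± 4.65, 17.0 ± 5.82 and 11.9 ± 5.47 in the same order of groups, with overlap in every comparison.

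**Figure D5:**
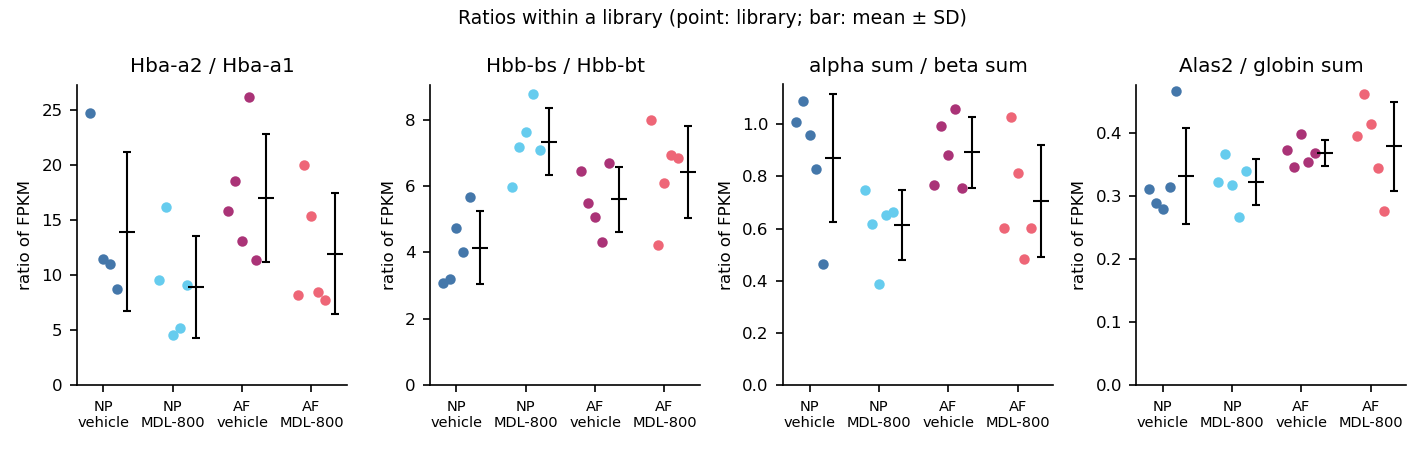
Each point is the ratio of FPKM within a library, on linear axes from 0, and the bar gives the mean ± SD of the group. For Hbb-bs to Hbb-bt the NP vehicle libraries lie at 3.07 to 5.68 and the NP MDL-800 libraries at 5.98 to 8.78, and in the other panels the groups of a tissue overlap.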

How the data were processed

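RNA was measured in 20 disc libraries. Per the labels' protocols, 50 ng of RNA gave stranded total RNA libraries after ribosomal depletion, with 14 PCR cycles. The authors deposited 1 table of FPKM values for 51789 genes. Per the submitters' processing notes, STAR 2.7.11b and the mm10 build were used. The counting program, annotation, strand setting and handling of shared reads are not given in the sources used here.

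The deposited FPKM were divided by a median-ratio factor per library (0.933 to 1.06, over 11308 genes). The 16383 genes that reached 1 FPKM in 5 libraries or more were tested on log2(scaled FPKM + 1) with limma 3.58.1 in R 4.3.3 (mean-variance trend, two-sided, Benjamini-Hochberg over all of them). Each fit held the 2 groups compared, and the interaction all 4. On normal data simulated from these means and a single spread per gene, the median estimate lay near the change put in. That checks the estimate only, not how many changed genes are found. Single genes also had an exact permutation test. Depth was estimated from 6158 single-exon genes of 400 to 1200 nucleotides: 78.9% to 83.8% of low values lay within 0.15 fragments of a whole number. No count was tested.

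GENCODE M21 (GRCm38) gave coordinates and 50-base windows, holding 51596 of the identifiers, and RefSeq gave promoters for 5 of the 6 genes. The genes and lists were chosen with earlier results of these data known. Besides the 6, the naming rule took the 3 most abundant genes of each list plus Gata1, Klf1, Ahsp and Hemgn, and the genes most correlated with the mean of the 6. Some genes that the rule names are not reported here. Alternatives covered pseudocount, filter, scaling, fit and each library left out, and a block on shared column-name numbers was added after seeing the data.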

Additional observations from a re-analysis of the deposited data

Results flagged for a closer look

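In 63 sets of 5 libraries (6 genes and 10 ratios between genes, by group), 2 had a library far from the others by Dixon's criterion at its 95% level, which chance passes in about 1 of 20 sets. In NP vehicle the ratio of Alas2 to the summed globin genes was 0.467 in library 6 and 0.279 to 0.314 in the other 4. In the same group the ratio of Alas2 to Slc4a1 was 2.09 in library 3 and 0.950 to 1.15 in the other 4, where Slc4a1 stood at 7.85 scaled FPKM in library 3 beside 16.4 for Alas2.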

How the results depend on the processing

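The count of the 6 genes called was the same (6, 6, 0, 0 and 0 for NP against AF with vehicle, with MDL-800, MDL-800 in NP, MDL-800 in AF and the interaction) in every alternative run, each library left out included. The log2 differences between tissues kept their sign, from -4.22 to -2.71 with vehicle and -4.96 to -2.75 with MDL-800. The number of genes called between MDL-800 and vehicle in NP, 41, was not stable: it was 7 with no filter on low values, 18 with FPKM as deposited, 70 with quantile normalization, 4 with all 4 groups in the fit, 18 without the mean-variance trend, and 2 (without NP vehicle library 3 or NP MDL-800 library 22) to 189 (without NP vehicle library 6) with a library left out. The cause was not tested. In AF and in the interaction, 0 became at most 1 with a library left out (AF MDL-800 25 or 29 in AF, 30 in the interaction). Of the other red cell genes, those lower in NP numbered 56 to 57 with vehicle and 53 to 58 with MDL-800 with a library left out. The 5 higher in NP with MDL-800 fell to 1 with no filter, 1 with FPKM as deposited, 3 with all 4 groups, 0 with the replicate block and 2 to 5 with a library left out, and in NP 0 to 1 were higher with MDL-800.

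Small differences with MDL-800 changed sign with a library left out. In NP they ran from -0.0355 to 0.44 for Hba-a1, -0.27 to 0.39 for Hbb-bs, -0.61 to 0.0875 for Alas2 and -0.31 to 0.45 for Slc4a1. In AF they ran from -0.0393 to 0.79 for Hba-a1, -0.48 to 0.18 for Hba-a2, -0.0904 to 0.68 for Hbb-bs, -0.24 to 0.35 for Hbb-bt, -0.12 to 0.41 for Alas2 and -0.042 to 0.60 for Slc4a1. For the interaction they ran from -0.54 to 0.29 for Hba-a1 (0.34 with a pseudocount of 0.1), -0.60 to 0.17 for Hbb-bs and -0.56 to 0.20 for Slc4a1. Ldb1 with vehicle was 0.14 with the upper-quartile factor, 0.0706 with quantile normalization, 0.035 with globin genes left out of the sum and -0.19 to 0.0871 with a library left out, and Steap3 with MDL-800 ran from -0.0013 to 0.22.

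NP and AF columns share a number for 8 pairs of libraries, whose meaning is not stated. Deviations of same-numbered libraries correlated at -0.18 to 0.29, and 6 of 16 libraries correlated best with their own number. These values cannot decide whether same-numbered libraries came from the same mouse, because different tissues of a mouse need not deviate alike. The main fits took the libraries as unpaired and made no use of the shared number. With that number as a replicate block, genes called between tissues went from 9127 to 8783 with vehicle and from 10290 to 7857 with MDL-800, and all 6 genes stayed called. Among the other named genes, the block ended the call of Bnip3l with MDL-800 (0.49, adjusted p = 0.0859) and of Ldb1 with MDL-800 (0.37, adjusted p = 0.197), left none of the 5 red cell genes called higher in NP with MDL-800, and made Tfrc with vehicle a call (-0.30, adjusted p = 0.0329). Tfrc with MDL-800 became a call in 5 other fits. Depth limits Hba-a1 and Hbb-bt in NP most, with at most 83 fragments.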
